A study of Homo sapiens with 6 samples.

Results

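The genes described are 37 enzymes of glycolysis, gluconeogenesis and glycogen metabolism given in a list of symbols. That list was chosen with earlier results of these data known and leaves out other genes of these pathways. All 37 symbols were found by exact match among the 43424 symbols of the count tables. They were measured in HepG2, a human hepatocellular carcinoma line, labelled wild type in all samples. One set of cultures was exposed for 24 h to tamarixetin at 10 µM (3 libraries), a flavonol that is quercetin with a methyl group on its B ring. The control cultures are labelled as receiving no treatment (3 libraries). Tamarixetin was given in RPMI1640 with 1% serum and 1% sodium pyruvate, where growth medium held 10% serum. The labels state neither a vehicle nor the serum of the control medium. Compound and any difference in serum or sodium pyruvate between the media therefore cannot be told apart. HepG2 is a single tumour line, and the labels call the libraries of a group biological replicates without saying whether they came from separate cultures or days. The p-values therefore measure the spread between these libraries.

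Glycolysis splits glucose into pyruvate and yields ATP and NADH, gluconeogenesis runs most of the same steps backwards through bypass enzymes, and glycogen is the branched glucose store of the liver. Flux is set mainly at hexokinase, phosphofructokinase and pyruvate kinase, at the pyruvate dehydrogenase complex, and at glycogen synthase and phosphorylase. Many steps have several isoenzymes, and liver cancer cells tend to carry fetal or muscle-type forms in place of the adult liver forms.

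Libraries were QuantSeq 3′ libraries, which give about 1 fragment for each transcript, so CPM values (counts scaled by TMM-adjusted library sizes) need no length correction. Comparing levels of different genes still assumes that the reads of each gene were counted in full. That need not hold for genes with pseudogenes or overlapping genes, and ALDOA had only 8 counts over the 6 libraries. Comparisons between genes below are therefore comparisons of counts. Total counts ran from 11980585 to 15454815 in the tamarixetin libraries and from 12131365 to 16168855 in the controls. The hepatocyte markers checked (12 genes, among them ALB, AFP and APOA1) were all detected. Their summed level was 15201 to 15316 CPM in tamarixetin libraries and 22794 to 23290.3 CPM in controls. Not every marker fell: APOA2, the largest, had 4114 to 4306 CPM with tamarixetin and 3679 to 3806 CPM in controls. FOXA2 overlapped, at 160 to 164 CPM and 151 to 161 CPM in the same order. The other markers of this list were lower in every tamarixetin library than in every control. Of markers of other cells, KDR had 0 counts and MARCO 2, CDH5 7 and PTPRC 9 counts over the 6 libraries. The endothelial list (4 genes) summed to 1.01 to 1.90 CPM with tamarixetin and 0.878 to 1.42 CPM in controls. The summed fibroblast list (6 genes) stood at 36.5 to 38.9 CPM with tamarixetin and at 39.9 to 45.1 CPM in controls. The macrophage and leukocyte list (5 genes, nearly all LYZ) stood at 766 to 822 CPM with tamarixetin and 908 to 1011 CPM in controls, and the cholangiocyte list (4 genes, mostly KRT19, SOX9 and EPCAM) at 725 to 762 CPM and 893 to 901 CPM in the same order. Mitochondrial transcripts made up 7.98% to 8.53% of counts with tamarixetin and 10.3% to 11.04% in controls. The part of these shifts in the enzyme changes was not tested. In bulk RNA, fewer cells of a type and less RNA per cell cannot be told apart.

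Of the 37 genes, 34 had enough counts to be tested and 22 of those changed, 9 higher and 13 lower (adjusted p under 0.05 in edgeR's quasi-likelihood test, Benjamini-Hochberg over 13198 genes). Among all genes tested 43.7% were called, 22.4% higher and 21.3% lower. HK2, HKDC1, PFKP, PFKFB2, PFKFB3, ENO2, PC, PCK2 and PYGB were higher. Of the abundant enzymes of the lower pathway, GAPDH, TPI1, PGK1, PKM and LDHA were slightly lower and ENO1 was not called. ALDOC, PFKFB4, PGM1, UGP2, PDHB and the pyruvate dehydrogenase kinases PDK1, PDK2 and PDK3 were lower too. The median log2 fold change was -0.054 over the 34 genes and 0.00038 over all genes tested. The tamarixetin and control libraries did not overlap in 23 of the 34 genes, where 50.5% of all genes tested showed no overlap. Of the 23, GPI and PGAM1 were not called, and PDK1 was called although its groups overlapped. Changes of at least 1.5-fold were called in 9 of the 34, beside 14.2% of all genes tested.

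**Figure D1:**
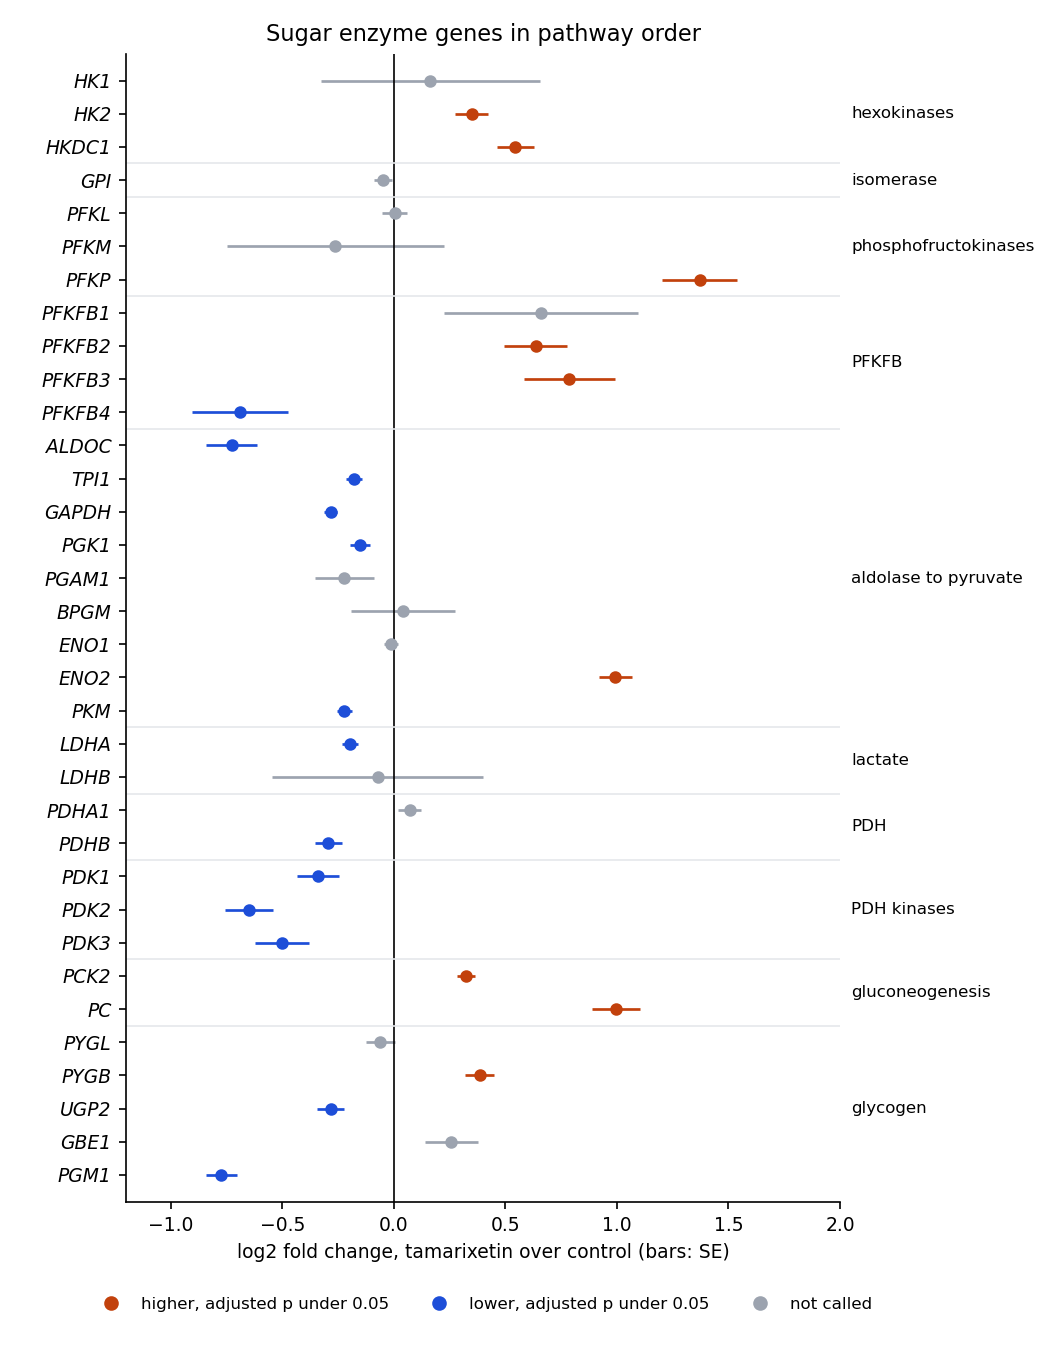
Log2 fold change of tamarixetin over control (horizontal axis) for the 34 enzyme genes tested, in pathway order from top to bottom; points are edgeR estimates and bars are SE. PFKP stands farthest right at 1.37 and PGM1 farthest left at -0.77, while the 3 listed pyruvate dehydrogenase kinases all lie left of 0.

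The 3 largest rises among the called enzymes were in PFKP, PC and ENO2, and the 3 largest falls in PGM1, ALDOC and PFKFB4. Their promoters are shown because these 6 genes carry the widest moves in each direction. Each sequence is the 250 bases before a RefSeq start of the gene (GRCh38.p14, the first in the promoter table used), read 5′ to 3′ on the gene's own strand. For PFKFB4 and PFKP that start lies inside the gene's RefSeq span (chromosome 3, 48517684 to 48563136, and chromosome 10, 3067548 to 3136805), so it is not the outermost start; the windows of the other 4 genes end at the span's edge. The windows are chr10:3067720-3067969 (plus strand) for PFKP, chr11:66958384-66958633 (minus strand) for PC and chr12:6914330-6914579 (plus strand) for ENO2. They are chr1:63593161-63593410 (plus strand) for PGM1, chr17:28576896-28577145 (minus strand) for ALDOC and chr3:48556804-48557053 (minus strand) for PFKFB4. Capitals mark ACGTG, a core that hypoxia-inducible factors bind, and GCGTG, a core bound by the aryl hydrocarbon receptor with its partner. Each was searched on both strands, and neither word is particular to a single factor.
PFKP: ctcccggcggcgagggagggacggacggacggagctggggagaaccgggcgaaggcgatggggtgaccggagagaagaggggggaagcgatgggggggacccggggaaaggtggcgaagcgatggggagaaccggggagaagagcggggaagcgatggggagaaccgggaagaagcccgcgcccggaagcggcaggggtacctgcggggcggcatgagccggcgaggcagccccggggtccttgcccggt
PC: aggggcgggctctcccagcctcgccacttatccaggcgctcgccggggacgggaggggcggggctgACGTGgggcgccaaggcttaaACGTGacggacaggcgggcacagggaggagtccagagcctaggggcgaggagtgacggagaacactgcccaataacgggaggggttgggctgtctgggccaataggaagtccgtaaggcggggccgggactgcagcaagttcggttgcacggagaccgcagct
ENO2: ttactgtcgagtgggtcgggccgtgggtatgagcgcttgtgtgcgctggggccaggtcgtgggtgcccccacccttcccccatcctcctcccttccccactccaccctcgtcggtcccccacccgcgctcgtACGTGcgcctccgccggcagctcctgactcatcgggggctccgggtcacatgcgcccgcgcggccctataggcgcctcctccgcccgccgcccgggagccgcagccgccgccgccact
PGM1: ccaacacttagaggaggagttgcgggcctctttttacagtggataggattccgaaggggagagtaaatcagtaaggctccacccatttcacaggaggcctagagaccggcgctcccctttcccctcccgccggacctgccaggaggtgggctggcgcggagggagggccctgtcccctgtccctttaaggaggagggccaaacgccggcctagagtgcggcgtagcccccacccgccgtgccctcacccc
ALDOC: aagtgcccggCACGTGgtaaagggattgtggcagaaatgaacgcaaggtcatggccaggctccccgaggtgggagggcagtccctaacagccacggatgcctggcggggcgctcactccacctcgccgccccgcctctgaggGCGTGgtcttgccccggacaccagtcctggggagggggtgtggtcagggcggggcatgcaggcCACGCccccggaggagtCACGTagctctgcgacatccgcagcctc
PFKFB4: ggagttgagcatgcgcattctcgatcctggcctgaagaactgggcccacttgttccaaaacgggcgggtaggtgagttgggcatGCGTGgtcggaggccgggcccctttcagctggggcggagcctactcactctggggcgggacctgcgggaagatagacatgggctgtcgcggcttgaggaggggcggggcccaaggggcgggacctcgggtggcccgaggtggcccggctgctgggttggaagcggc
The ALDOC window held 3 matches to ACGTG, of which a CACGTG gave a pair (1 on each strand), and 2 to GCGTG. The PC window held 2 matches to ACGTG and the ENO2 window 1, while PFKFB4 had 1 match to GCGTG and PFKP and PGM1 had none to either. Over the 33 tested enzymes with a promoter in the table, 13 (39.4%) held ACGTG, beside 23.5% of 10357 tested genes with one. ACGTG was in 7 of 13 lower enzymes, beside 21.9% of all lower genes, and in 3 of 8 higher enzymes, beside 25.8% of all higher genes. GCGTG was in 13 of the 33 enzymes (39.4%), beside 45.7% of the tested genes. Such short words occur by their letters alone, so a match describes the window and marks no binding site.

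Hexokinases trap glucose as glucose 6-phosphate, and 2 of the 3 listed were higher with tamarixetin, beside 22.4% of all genes tested. HK2, the high-affinity form of muscle and tumours (chromosome 2, 74834127 to 74893359), had 46.8, 50.9 and 49.2 CPM in tamarixetin libraries 1 to 3, against 38.2, 38.1 and 38.8 CPM in control libraries. All tamarixetin libraries were above all controls, and the log2 fold change was 0.35 (SE 0.073, edgeR adjusted p = 3.63e-05). HKDC1, a hexokinase-like enzyme linked to liver cancer (chromosome 10, 69220332 to 69267552), had 42.3, 41.97 and 39.8 CPM with tamarixetin, against 27.0, 31.6 and 26.9 CPM in controls. It rose by 0.54 (SE 0.082, edgeR adjusted p = 1.84e-08), again without overlap. HK1, the widespread form, starts beside HKDC1 on chromosome 10 (69270000 to 69401882) and was near the lower limit of the assay, with 0.858 ± 0.154 CPM in tamarixetin libraries and 0.752 ± 0.288 CPM in controls (SD, n = 3 each), and was not called. HK2 and HKDC1 thus made up nearly all hexokinase counts in both groups. The HKDC1 to HK2 ratio differed by 0.19 on the log2 scale (SE 0.096) with overlapping groups (exact permutation test, two-sided p = 0.3, n = 3 each; adjusted p = 0.412 over 11 pairs). GPI, which turns glucose 6-phosphate into fructose 6-phosphate, was not called (log2 fold change -0.049, 95% interval -0.13 to 0.028).

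Phosphofructokinase makes fructose 1,6-bisphosphate, the committed step. The liver form PFKL was the main one, at 88.3, 91.3 and 81.0 CPM with tamarixetin and 88.8, 86.7 and 84.8 CPM in controls. These libraries overlapped and the interval of its log2 fold change was -0.11 to 0.11. PFKP, the platelet form, had 12.9, 10.9 and 11.3 CPM with tamarixetin, against 4.63, 3.50 and 5.27 CPM in controls. It was 2.59-fold higher, the largest rise among the 34 (log2 fold change 1.37, SE 0.167, edgeR adjusted p = 1.37e-11), with no overlap. The PFKP to PFKL ratio within a library was higher by 1.40 (SE 0.199) with tamarixetin, and its groups did not overlap (exact permutation test, p = 0.1, n = 3 each, the smallest p that 3 against 3 allows; adjusted p = 0.157 over 11 pairs). PFKL still supplied most phosphofructokinase counts in both groups. PFKM, the muscle form, had 0.806 ± 0.151 CPM with tamarixetin and 0.998 ± 0.622 CPM in controls (SD, n = 3 each) and was not called. PFKM overlaps SENP1 over 727 bases on the other strand, and SENP1 had 1700 counts against 75 of PFKM, so the value of PFKM is uncertain.

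The PFKFB enzymes make and break fructose 2,6-bisphosphate, the strongest activator of phosphofructokinase, and here they moved apart. PFKFB3, whose kinase activity far exceeds its phosphatase activity, had 6.16, 6.51 and 6.43 CPM with tamarixetin, against 2.97, 4.17 and 3.95 CPM in controls (log2 fold change 0.79, SE 0.205). PFKFB2, the heart form, had 13.0, 14.3 and 13.3 CPM with tamarixetin, against 8.85, 10.3 and 7.15 CPM in controls (0.64, SE 0.140). Both rose with no overlap between groups. PFKFB4, known from testis and hypoxic tumours, went the other way, with 3.14, 3.26 and 4.29 CPM with tamarixetin, against 5.94, 4.67 and 6.39 CPM in controls (-0.69, SE 0.215, edgeR adjusted p = 0.00579). PFKFB1, the liver form, had 1.28, 1.09 and 1.98 CPM with tamarixetin and 1.24, 1.00 and 0.502 CPM in controls, overlapped between groups and was not called. In controls PFKFB4 exceeded PFKFB3 in every library, and with tamarixetin PFKFB3 exceeded PFKFB4 in every library. The log2 ratio of PFKFB4 to PFKFB3 averaged -0.85 ± 0.23 with tamarixetin and 0.61 ± 0.42 in controls (SD, n = 3 each), a difference of -1.46 (SE 0.276, exact permutation test, p = 0.1, the smallest possible). PFKFB2 overlaps YOD1, a gene on the other strand with 459 counts over all libraries, and the strand setting of the counting is not given in the sources used here.

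**Figure D2:**
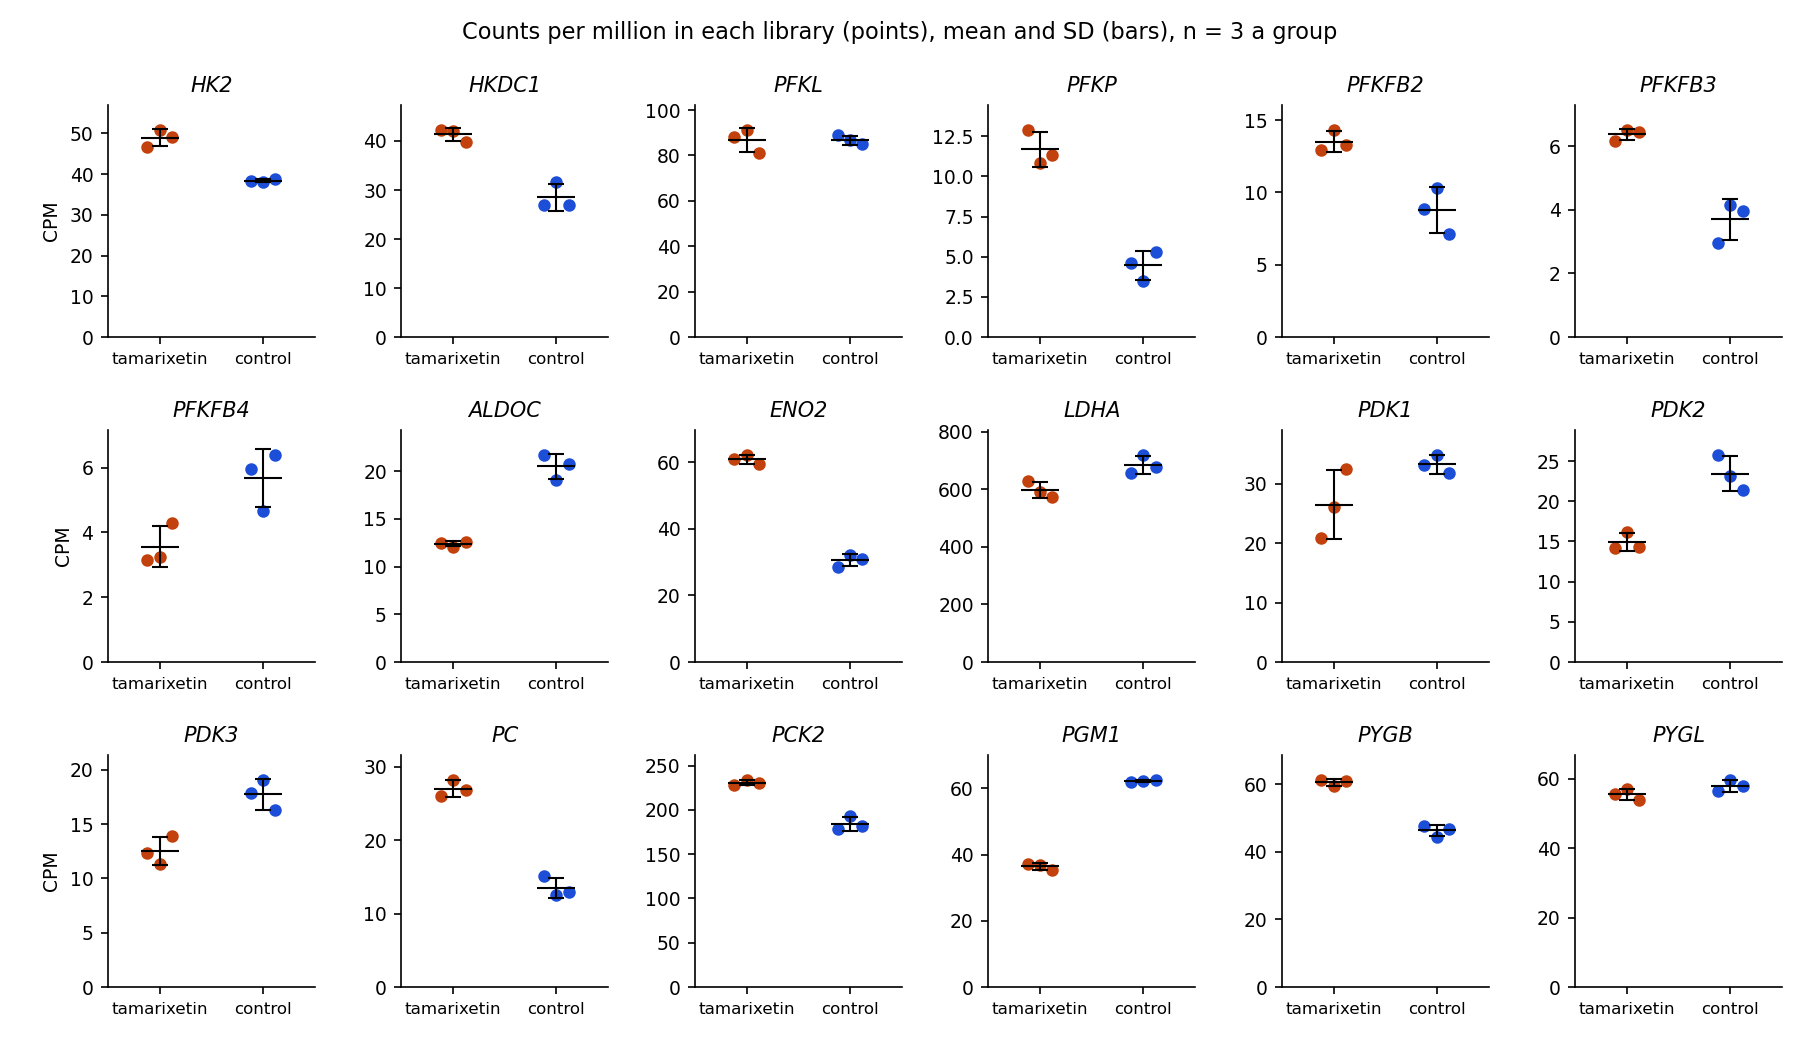
CPM (vertical axes, each from 0) of 18 enzyme genes in the 3 tamarixetin libraries (left in each panel) and the 3 control libraries (right), with points for libraries 1 to 3 from left to right, the mean as a wide line and the SD as bars. PFKP, ENO2 and PC stand far above their controls, PGM1 and ALDOC far below, and the PDK1 points reach from 20.8 to 32.4 CPM with tamarixetin.

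The steps from aldolase to pyruvate held the most abundant transcripts, and 5 of their 9 tested genes were lower, beside 21.3% of all genes tested. Among all genes of at least 100 CPM, the level of GAPDH, TPI1, PGK1, ENO1 and PKM, 33.7% were lower. GAPDH, which makes the first NADH of the pathway (chromosome 12, 6534517 to 6538371), had 2145, 2120.2 and 2141 CPM with tamarixetin, against 2735, 2440.1 and 2614 CPM in controls. It fell by 0.28 on the log2 scale (SE 0.030, edgeR adjusted p = 3.70e-14). TPI1, which interconverts the triose phosphates, fell by 0.18 (SE 0.037), PGK1, which makes the first ATP of this stretch, by 0.15 (SE 0.045), and PKM, the pyruvate kinase of tumours and muscle, by 0.22 (SE 0.034). PKM averaged 533 ± 9.25 CPM with tamarixetin and 621 ± 23.1 CPM in controls, and TPI1 averaged 327 ± 10.6 CPM and 370.2 ± 2.88 CPM in the same order (SD, n = 3 each). In each of these 4 genes all tamarixetin libraries were below all controls, and the widest difference, in GAPDH, was 1.22-fold. GAPDH, TPI1, PGK1, PGAM1, ENO1, PKM and LDHA have processed pseudogenes, and reads shared with them may be split or lost in the counting.

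ENO1 and ENO2 convert 2-phosphoglycerate into phosphoenolpyruvate, and only ENO2 was called. ENO2, the neuronal enolase (chromosome 12, 6914580 to 6923697), had 60.9, 62.2 and 59.5 CPM with tamarixetin, against 28.7, 32.3 and 30.9 CPM in controls. It was 1.99-fold higher (log2 fold change 0.99, SE 0.073, edgeR adjusted p = 2.54e-22), the smallest p among the 34 genes. ENO1, the main enolase, had 1561, 1517 and 1478 CPM with tamarixetin and 1503, 1568 and 1524 CPM in controls, with an interval of -0.071 to 0.047. The ENO2 to ENO1 ratio was higher by 1.00 (SE 0.040) with tamarixetin and its groups stood apart (exact permutation test, p = 0.1, n = 3 each, adjusted p = 0.157 over 11 pairs). ENO2 overlaps the gene LOC124902868, which had 17 counts in all. ALDOC, the brain aldolase, moved against ENO2: it had 12.5, 12.1 and 12.6 CPM with tamarixetin, against 21.7, 19.1 and 20.7 CPM in controls (log2 fold change -0.73, SE 0.115, edgeR adjusted p = 6.71e-08).

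ALDOA, in most cells the main aldolase, was listed with only 8 counts over the 6 libraries, 0, 1 and 0 with tamarixetin and 6, 1 and 0 in controls, and was not tested. In RefSeq it overlaps LOC112694756 over 6136 bases, a gene listed at 0 counts here. Whether that overlap took reads away was not tested, so the count gives no level for ALDOA. PGAM1, the mutase before enolase, had 10.8 ± 0.358 CPM with tamarixetin and 12.5 ± 1.04 CPM in controls and was not called, though its groups did not overlap. BPGM, which makes 2,3-bisphosphoglycerate, had 3.88 ± 0.481 CPM and 3.76 ± 0.445 CPM in the same order (SD, n = 3 each) and was not called. BPGM lies inside the span of LOC124901750, which had 3 counts in all, and whether that overlap took reads away was not tested.

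Lactate dehydrogenase turns pyruvate into lactate. LDHA, the muscle-type subunit (chromosome 11, 18394563 to 18408425), had 628, 592 and 573 CPM with tamarixetin, against 658, 719.9 and 679 CPM in controls. It fell by 0.20 on the log2 scale (SE 0.035, edgeR adjusted p = 1.29e-06), with every tamarixetin library below every control. LDHB, the heart-type subunit, had 0.866 ± 0.191 CPM with tamarixetin and 0.898 ± 0.231 CPM in controls (SD, n = 3 each), so that LDHA supplied 99.9% of lactate dehydrogenase counts in both groups. The LDHA to LDHB ratio rested on 8 to 18 counts of LDHB a library, and its groups overlapped (exact permutation test, p = 0.7, n = 3 each).

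Pyruvate enters the mitochondrial cycle through the pyruvate dehydrogenase complex, which the kinases PDK1 to PDK3 switch off by phosphorylation. All 3 of these kinases were lower, beside 21.3% of all genes tested. PDK4, a further kinase of this family outside the list, had 28 counts over the 6 libraries and was not tested. PDK2, the widespread form, had 14.2, 16.2 and 14.4 CPM with tamarixetin, against 25.8, 23.2 and 21.4 CPM in controls (log2 fold change -0.65, SE 0.108, edgeR adjusted p = 2.57e-07). PDK3 had 12.3, 11.4 and 13.9 CPM with tamarixetin, against 17.8, 19.1 and 16.3 CPM in controls (-0.50, SE 0.120). In both genes the groups stood apart. PDK1, a kinase known to respond to hypoxia, was uneven, with 20.8, 26.1 and 32.4 CPM with tamarixetin, against 33.2, 34.8 and 31.7 CPM in controls. Tamarixetin library 3 lay above control library 3, and the fall of 0.34 (SE 0.094, edgeR adjusted p = 0.00172) was -0.19 and no longer called without tamarixetin replicate 1 (adjusted p = 0.125).

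The listed subunits of the complex, PDHB and PDHA1, did not move together. PDHB had 60.8, 60.1 and 58.8 CPM with tamarixetin, against 77.4, 68.0 and 74.6 CPM in controls, and fell by 0.29 (SE 0.062, edgeR adjusted p = 3.68e-05). PDHA1, the subunit that the kinases phosphorylate, had 111, 108 and 103 CPM with tamarixetin and 102, 107 and 98.6 CPM in controls, overlapped, and was not called (interval -0.029 to 0.17). The PDK1 to PDHA1 ratio differed by -0.42 (SE 0.216), with tamarixetin library 3 at -1.67 close under the controls at -1.62 to -1.63 (exact permutation test, p = 0.1, the smallest possible). PDHA1 overlaps MAP3K15 on the other strand, which had 205 counts in all. Of the complex's parts outside the list, DLAT (log2 fold change 0.20, SE 0.073) and PDHX (0.28, SE 0.075) were called higher and DLD was not called. PDP1, a pyruvate dehydrogenase phosphatase that reverses the kinases, was called higher (1.02, SE 0.235), while PDP2 and PDPR were not called.

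The gluconeogenic bypass begins with pyruvate carboxylase (PC), which makes oxaloacetate and also refills the citric acid cycle. PC (chromosome 11, 66848420 to 66958383) had 26.0, 28.2 and 26.8 CPM with tamarixetin, against 15.1, 12.6 and 12.9 CPM in controls. It was 1.99-fold higher (log2 fold change 1.00, SE 0.106, edgeR adjusted p = 5.14e-14) with no overlap. PCK2, the mitochondrial phosphoenolpyruvate carboxykinase and a known ATF4 target (chromosome 14, 24094171 to 24104125), had 228, 234 and 231 CPM with tamarixetin, against 178, 193 and 182 CPM in controls, a rise of 0.32 (SE 0.042, edgeR adjusted p = 1.28e-10). PC rose by more than PCK2: the PCK2 to PC ratio was lower by 0.68 on the log2 scale (SE 0.113) with tamarixetin, a difference of -0.68 with groups apart (exact permutation test, p = 0.1, n = 3 each, adjusted p = 0.157 over 11 pairs). PC overlaps LRFN4 (486 counts in all) and PCK2 lies inside the span of NRL (485 counts in all), both on the other strand. FBP1, the fructose bisphosphatase that opposes phosphofructokinase, had 3, 2 and 4 counts with tamarixetin and 7, 7 and 11 counts in controls, too few to be tested.

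Glycogen genes split by step. PGM1, phosphoglucomutase, links glucose 6-phosphate with glucose 1-phosphate in both directions (chromosome 1, 63593411 to 63660245). It had 37.1, 36.8 and 35.2 CPM with tamarixetin, against 61.9, 62.2 and 62.6 CPM in controls, the largest fall among the 34 genes (log2 fold change -0.77, SE 0.070, edgeR adjusted p = 2.23e-17). UGP2, which makes the UDP-glucose used for glycogen and for glucuronidation, had 67.9, 61.8 and 60.7 CPM with tamarixetin, against 77.3, 73.4 and 81.1 CPM in controls, and fell by 0.28 (SE 0.061, edgeR adjusted p = 5.00e-05). Both falls were without overlap between groups. GBE1, the branching enzyme, had 16.2, 22.7 and 16.7 CPM with tamarixetin and 16.2, 13.2 and 16.9 CPM in controls, and was not called (log2 fold change 0.26, edgeR adjusted p = 0.0673). Its value rested on tamarixetin library 2, and without that replicate it was 0.089. GYS2, the liver glycogen synthase, had 0 counts in all 6 libraries, which allows up to 3 counts or 0.186 to 0.250 CPM a library.

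Glycogen phosphorylase releases glucose 1-phosphate, and of its forms only the brain form PYGB was called. PYGB (chromosome 20, 25248085 to 25298012) had 61.3, 59.4 and 60.9 CPM with tamarixetin, against 47.6, 44.5 and 46.8 CPM in controls (log2 fold change 0.38, SE 0.067, edgeR adjusted p = 7.86e-07). PYGL, the liver form, had 55.8, 57.1 and 53.9 CPM with tamarixetin and 56.4, 59.8 and 57.9 CPM in controls, with overlap and an interval of -0.19 to 0.068. PYGB was above PYGL in every tamarixetin library and below it in every control library. The log2 ratio of PYGB to PYGL averaged 0.12 ± 0.060 with tamarixetin and -0.33 ± 0.092 in controls (SD, n = 3 each), a difference of 0.45 (SE 0.063, exact permutation test, p = 0.1, the smallest possible). PYGB overlaps ABHD12 over 3270 bases on the other strand, and ABHD12 had 5800 counts against 4485 of PYGB, so the value of PYGB is uncertain.

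**Figure D3:**
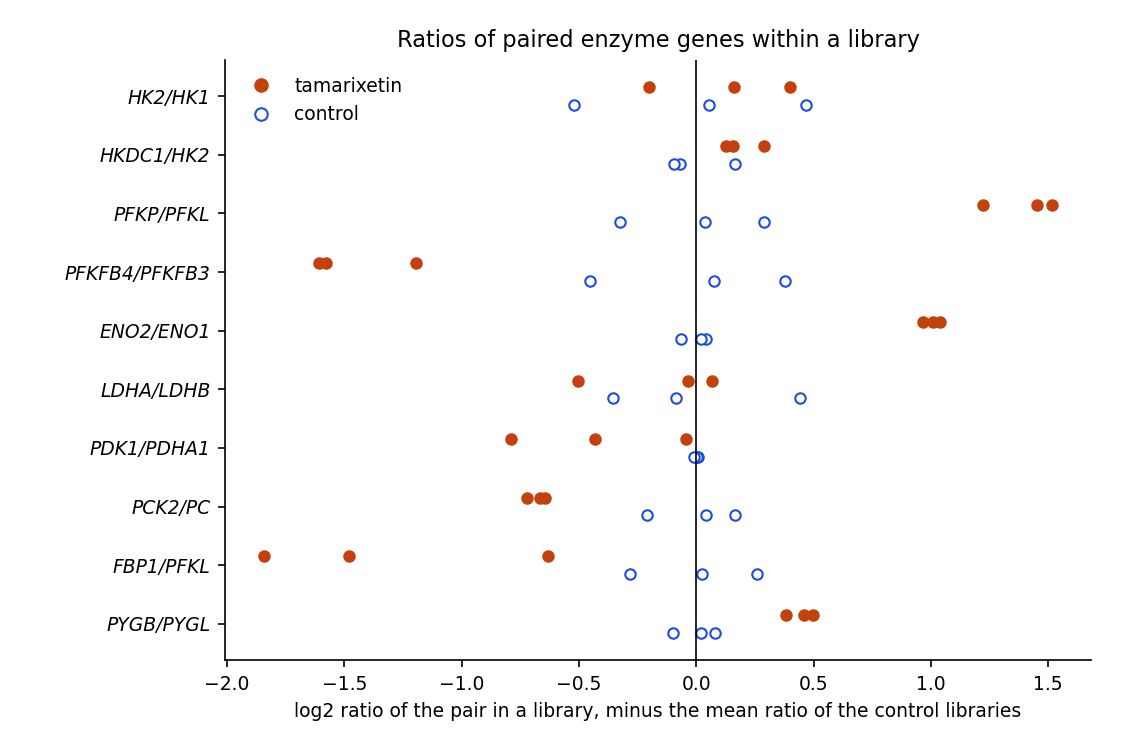
Log2 ratio of 10 pairs of enzyme genes in each library, less the mean of the control libraries (horizontal axis); filled points are tamarixetin libraries and open points control libraries. The PFKP/PFKL, ENO2/ENO1 and PYGB/PYGL points of the tamarixetin libraries lie right of all controls, and the PFKFB4/PFKFB3 and PCK2/PC points lie left of them.

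In all, 11 pairs could be compared, and the groups did not overlap in 7 of them. For each of the 7 the exact permutation test gave an adjusted p of 0.157 over the 11 pairs. Among all single genes tested, 50.5% showed no overlap, and no such share was computed for pairs. The pairs were chosen with earlier results of these data known. GYS2 had no counts, so its pair gave no value. The FBP1 to PFKL ratio was lower by 1.32 with tamarixetin on the log2 scale (SE 0.391), a difference of -1.32 that rests on 2 to 11 counts of FBP1. The HK2 to HK1 ratio (0.12, SE 0.336) and the ALDOC to ALDOA ratio (0.48, SE 1.22) had overlapping groups (exact permutation test, p = 0.7 for both, n = 3 each), and HK1 and ALDOA had few counts.

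Levels and changes were read side by side. Of the 9 enzymes with a mean of at least 100 CPM, 1 was higher (PCK2) and 5 were lower, with log2 fold changes of -0.28 to 0.32; among 1957 genes of that level 34.5% were higher and 33.7% lower. Of 17 enzymes between 10 and 100 CPM, 6 were higher and 7 lower, with changes of -0.77 to 1.00, beside 25.3% higher and 23.4% lower among 6689 genes of that level. Of 8 enzymes under 10 CPM, 2 were higher and 1 lower, beside 12.9% higher and 13.0% lower among 4552 genes. The summed transcripts from aldolase to pyruvate stood at 4762 ± 64.9 CPM with tamarixetin and 5364 ± 126 CPM in controls (SD, n = 3 each). Summed hexokinases stood at 91.1 ± 2.13 CPM and 67.6 ± 2.28 CPM, and summed pyruvate dehydrogenase kinases at 53.9 ± 6.66 CPM and 74.4 ± 4.36 CPM, both in the same order.

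**Figure D4:**
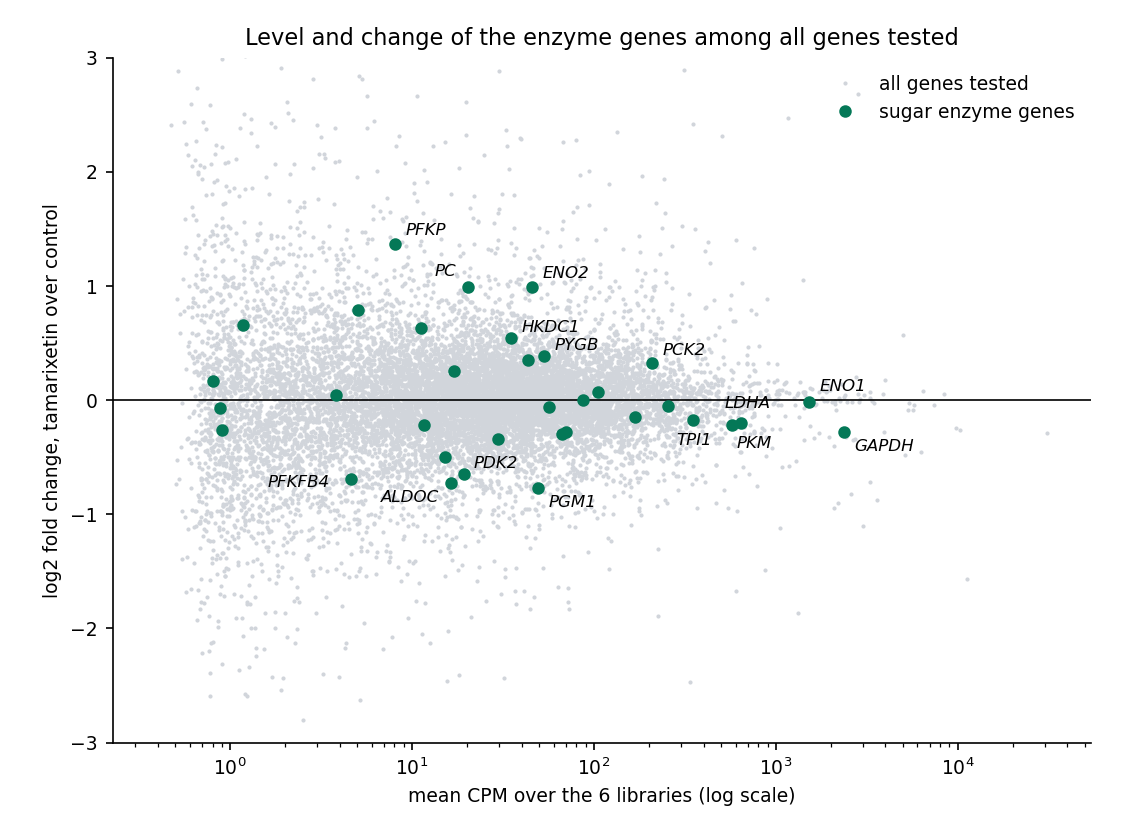
Mean CPM over the 6 libraries (horizontal axis, log scale) and log2 fold change of tamarixetin over control (vertical axis) for all 13198 genes tested (grey) and the 34 enzyme genes (green); 39 genes beyond 3 on the log2 scale, none of them an enzyme gene of the list, are not drawn. The most abundant enzymes, GAPDH and ENO1, lie at -0.28 and -0.012, and the widest moves, from -0.77 to 1.37, are in enzymes below 100 CPM.

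A further 55 genes of the same pathways were taken from a textbook list, and 40 of them were tested. Of these 8 rose and 13 fell, beside 22.4% higher and 21.3% lower among all genes tested, and 19 were not called, with a median log2 fold change of -0.11. Changes of at least 1.5-fold were called in 10 of the 40, beside 14.2% of all genes tested. The 8 of the 10 with the smallest p are given. GCKR had 13.5, 17.3 and 11.1 CPM with tamarixetin, against 4.84, 4.50 and 4.45 CPM in controls (log2 fold change 1.61, SE 0.161). TIGAR, a fructose bisphosphatase that lowers fructose 2,6-bisphosphate, rose by 0.94 (SE 0.112) to 23.6 ± 1.86 CPM with tamarixetin, against 12.4 ± 1.13 CPM in controls (SD, n = 3 each).

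G6PC1, the glucose 6-phosphatase of liver that frees glucose for export, had 6.48, 5.36 and 5.44 CPM with tamarixetin, against 1.87, 3.17 and 2.01 CPM in controls (log2 fold change 1.32, SE 0.241, edgeR adjusted p = 2.26e-06). ENO3, the muscle enolase, fell by 1.15 (SE 0.099) to 14.6 ± 0.504 CPM, against 32.5 ± 1.07 CPM in controls, and so moved opposite to ENO2. PKLR, the liver pyruvate kinase, fell by 1.08 (SE 0.146) to 6.48 ± 0.234 CPM, against 13.8 ± 1.14 CPM in controls. MPC2, a subunit of the mitochondrial pyruvate carrier, fell by 0.82 (SE 0.067) to 41.6 ± 3.06 CPM, against 73.1 ± 4.47 CPM in controls (SD, n = 3 each for all 3 genes). GYG2, the liver glycogenin that primes glycogen, fell by 0.78 (SE 0.075), and LDHD, a D-lactate dehydrogenase, by 1.13 (SE 0.227). In all 8 genes the tamarixetin and control libraries did not overlap. GYS1, the glycogen synthase outside liver, was measured where GYS2 had no counts. It had 24.0 ± 1.34 CPM with tamarixetin and 31.2 ± 2.96 CPM in controls (SD, n = 3 each) and was called lower (-0.38). GYG1, the other glycogenin, moved opposite to GYG2 and was called higher (log2 fold change 0.30, SE 0.091). Unlike G6PC1, PCK1 (log2 fold change -0.49, SE 0.207) and SLC37A4 (-0.52, SE 0.081) were called lower, and G6PC3 was not called. GYS1, GYG1, PCK1, SLC37A4 and G6PC3 were chosen after their values were seen.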

How the data were processed

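The deposited values are raw read counts per gene symbol, 1 table per library, not normalised, per the file headers and values. The tools were featureCounts 2.0.6, STAR 2.7.10b and fastp 0.23.1, with GRCh38 as the build, per the submitters' processing notes. Not given in the sources used here are the annotation release and how strand, shared reads and molecular identifiers were handled. Depth was 11980585 to 16168855 counts a library.

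Here counts were filtered with filterByExpr, scaled by TMM and fitted in edgeR 4.0.16 (R 4.3.3; quasi-likelihood F test, group as the only term, all 6 libraries), with p adjusted by Benjamini-Hochberg over 13198 genes and a threshold of 0.05. SE was computed as the size of the log2 fold change over the root of F, and intervals are 1.96 SE either side (95%). CPM values use TMM-adjusted library sizes. Log2 ratios of 11 pairs were taken within a library after adding 0.5 to each count and compared by an exact two-sided permutation test, which cannot go below 0.1. Coordinates and promoters are from RefSeq (GRCh38.p14), strands of overlapping genes from GENCODE. A promoter was listed for 35 of the 37 genes, and the first listed was used.

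The members, pairs and lists were chosen with earlier results of these data known. The naming rule gave values in every library for members of the regulated branches averaging 1 CPM or more and for others called at 1.25-fold or more, and took up to 8 other pathway genes called at 1.5-fold or more. Outside that rule GAPDH, ENO1, GYS1, GYG1, PCK1, SLC37A4, G6PC3, DLAT, PDHX, DLD, PDP1, PDP2, PDPR and PDK4 are given, chosen after their values were seen. The same holds for TPI1, PGK1 and PKM, given by mean or change. Chi-square per gene between libraries of a group was 2.37 to 3.52, so none was a copy. Alternatives were other scalings (DESeq2 size factors, library size, upper quartile, without mitochondrial genes), other filters, the replicate number as a block, each library left out, DESeq2 1.42.0, limma-voom (limma 3.58.1), an adjusted p of 0.01 and a minimum fold of 1.2.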

Additional observations from a re-analysis of the deposited data

How the results depend on the processing

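Of the 22 called enzymes, 10 kept their call in all 17 alternatives; PFKFB4 kept it in 16 and was not tested when genes needed 5 CPM in 3 libraries, where 12 enzymes were lower. None of the 22 changed sign in an alternative that tested it. When the test itself asked for a minimum fold of 1.2, 6 enzymes were higher and 5 lower, against 9 and 13; the other pathway genes gave 4 higher and 8 lower, and 2560 genes in all passed against 5771. HK2, TPI1, GAPDH, PGK1, PKM, LDHA, PDHB, PDK1, PCK2, PYGB and UGP2 lost their call there (PYGB at adjusted p = 0.0503 in edgeR). PDK1 was the 1 call lost by leaving out a library, as given above. GBE1 was called higher with scaling by library size alone (0.29), and without control replicate 3 (0.32), tamarixetin replicate 1 (0.35) or tamarixetin replicate 3 (0.32). The sign turned in 6 uncalled genes. PFKL was -0.032 under upper quartile scaling, -0.0044 when genes needed 5 CPM in 3 libraries and -0.00029 with the replicate block, and ran from -0.030 to 0.050 over left-out libraries. ENO1 was 0.023 with library size alone and ran from -0.032 to 0.0079 over left-out libraries. Over left-out libraries HK1 ran from -0.039 to 0.51, PFKM from -0.68 to 0.18, BPGM from -0.050 to 0.13 and LDHB from -0.26 to 0.13. Among the ratios, HK2 to HK1 ran from -0.14 to 0.35, LDHA to LDHB from -0.33 to 0.064 and ALDOC to ALDOA from -0.42 to 1.47 over left-out libraries, and ALDOC to ALDOA was -0.35 with 5 added before the log; these involve genes of few counts, and the cause was not tested. The replicate numbers did not pair the libraries (correlations of deviations -0.0089, -0.041 and -0.020), and with the replicate block 5735 genes, 9 enzymes higher and 13 lower were called. Scaling moved the median of all genes by at most 0.035, and the calls over all genes, 2954 higher and 2817 lower, became 3383 and 2469 with library size alone and 2598 and 3207 with upper quartile scaling. HK1, PFKM, LDHB and FBP1 had about 1 CPM or less, so their values are uncertain, and the cause of their low counts was not tested.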

Other observations

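The make-up of each step by isoenzyme, as a share of the step's counts, gives a further view of which isoenzyme transcripts were counted. PFKP supplied 11.8% ± 1.09 of phosphofructokinase counts with tamarixetin and 4.84% ± 0.985 in controls (SD, n = 3 each). PFKFB4 supplied 14.3% ± 1.955 of PFKFB counts with tamarixetin and 30.0% ± 6.30 in controls, and PFKFB2 was the main form in both groups, at 54.3% ± 2.95 and 45.8% ± 5.79 in the same order. HKDC1 supplied 45.4% ± 1.39 of hexokinase counts with tamarixetin and 42.1% ± 2.57 in controls. Among the 3 listed pyruvate dehydrogenase kinases, PDK3 held 23.4% ± 2.42 with tamarixetin and 23.8% ± 0.820 in controls. These are shares of counts and were not tested.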
